A study of Rattus norvegicus with 6 samples.

Results

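CYP26B1, the enzyme that breaks down retinoic acid, and 8 further genes of retinoic acid synthesis, binding and reception were followed in isolated rat glomeruli, 9 of the 26319 genes in the deposited table. The members were taken by their symbol in the authors' tables, and each symbol had 1 Ensembl gene. CYP26B1 was chosen for its measured level: it was selected on the difference between AC1903 and vehicle in these libraries. Its values are therefore given as a description with no test in any comparison. The other 8 were ALDH1A1, ALDH1A2, ALDH1A3, RBP4, RARA, RARB, RARG and RXRA, and all 9 genes had enough counts to enter the fit.

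Polyadenylated RNA of glomeruli from Sprague Dawley rats was sequenced in 6 libraries, 3 groups of 2. The WT group was wild type, was also labelled as given vehicle, and was 20.4 and 21.9 weeks old (replicates 1 and 2). The AT1R Tg vehicle group carried a transgene of the angiotensin II receptor AT1R, received vehicle and was 20.4 and 17.4 weeks old. The AT1R Tg AC1903 group carried the same transgene, received AC1903, an inhibitor of the calcium-permeable channel TRPC5, and was 23.0 and 20.4 weeks old. The promoter of the transgene, the dose and duration of AC1903, and whether a library pooled animals are stated by none of the labels. Ages differed within each group, but no label names an animal, so the p-values measure the spread between these libraries.

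Retinol is carried in blood by the binding protein RBP4 and taken up by cells, oxidised to retinal by retinol dehydrogenases, and oxidised further to retinoic acid by the ALDH1A enzymes. Retinoic acid binds receptors of the RAR family, which sit on DNA as partners of RXR receptors and switch target genes. CYP26 enzymes hydroxylate retinoic acid and so end its signal, and CYP26B1 is the member of that family best known from developing limb, gonad and skin. In the kidney, retinoic acid acts on podocytes, the epithelial cells that form the filter of the glomerulus, and is known to favour their differentiated state.

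The sites that RAR and RXR pairs bind are direct repeats of a short motif, and the RARB gene is the textbook case of a gene with such a site at its start. Sequences around the starts of the members were therefore read from RefSeq (build GRCr8), as windows from 250 bases before to 50 bases after each start. All 9 symbols matched, with 10 windows, since Rarg had 2. The repeat with 5 bases between its copies (NGNTCA, 5 bases of any kind and NGNTCA again, searched on both strands) was found in 1 of the 10 windows, that of Rarb, and in 382 of 33469 windows of all genes (1.14%). It lay 25 to 41 bases after the Rarb start, on chr15:11336410-11336438 of the plus strand with its flanks, and the capitals mark both copies.
Rarb: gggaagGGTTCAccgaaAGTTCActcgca
The same repeat with 2 bases between the copies was found in none of the 10 member windows (0) and in 326 of all windows (0.974%) and does not overlap the Rarb match. The 250 bases before the start of Cyp26b1, the member with the widest difference between groups, are shown because neither motif was found in them. They lie on chr4:118616177-118616426, minus strand, and no letter is capitalised, since nothing was matched.
Cyp26b1: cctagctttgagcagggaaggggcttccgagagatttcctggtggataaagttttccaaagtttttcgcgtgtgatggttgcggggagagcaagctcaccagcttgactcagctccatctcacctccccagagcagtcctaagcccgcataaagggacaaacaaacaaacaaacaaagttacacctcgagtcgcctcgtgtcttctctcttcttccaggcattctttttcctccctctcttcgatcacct
A match of these letters is a description of the window and is no measurement of receptor binding.

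Levels were expressed in CPM, the count of a gene relative to the scaled total of its library, which is not corrected for gene length, so levels of different genes are not compared. The WT libraries totalled 25045081 and 36026772 expected counts, and the 4 AT1R Tg libraries 12325515 to 14230770. The defining markers of glomerular cells were present: NPHS1 of podocytes had 1271 to 2361 CPM, PECAM1 of endothelium 246 to 341 CPM, and PDGFRB of mesangium 123 to 198 CPM. Summed proximal tubule markers (11 of 12 symbols matched) had 3241 and 2055 CPM in WT, 4866 and 9407 CPM with vehicle, and 4868 and 4939 CPM with AC1903. The share of mitochondrial counts ranged from 22.3% to 40.5%, and AT1R Tg vehicle replicate 2 was highest in both. No marker gene was at 0 in all libraries, and LRP2 and CD3E are not analysed here.

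CYP26B1 (ENSRNOG00000015076) had overlapping levels in wild type and vehicle-treated transgenic glomeruli, and with AC1903 its level was 2.65-fold that with vehicle. It had 23.0 and 25.6 CPM in WT, 17.3 and 26.0 CPM in AT1R Tg vehicle, and 60.7 and 53.5 CPM in AT1R Tg AC1903. The AC1903 libraries were the highest of the 6 and overlapped with no other, while the vehicle libraries lay on both sides of the WT libraries. These levels rest on 642 and 945 counts for WT, 244 and 319 for vehicle, and 730 and 669 for AC1903. Group means were 24.3 ± 1.82, 21.6 ± 6.15 and 57.1 ± 5.13 CPM (SD, n = 2 each). In glomeruli taken whole, fewer cells of a type and less RNA per cell cannot be told apart, for this and all other genes here.

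The CYP26B1 level with AC1903 against vehicle was 2.65-fold (log2 difference 1.40). Over the 4 pairings of an AC1903 with a vehicle library, the ratio of CYP26B1 levels ran from 2.06 to 3.52. The authors' deposited table gives the same contrast as a log2 fold change of 1.40. Against WT, CYP26B1 with AC1903 was 2.35-fold (log2 difference 1.23), and the pairings ran from 2.09 to 2.64. The vehicle group against WT differed by a log2 value of −0.17. These contrasts share libraries and are not independent of each other. Each of them uses AC1903 or vehicle libraries, and the gene was chosen on the difference between those groups.

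Ages are not balanced across the groups, but 1 library of each group was 20.4 weeks old. In those 3 libraries CYP26B1 had 23.0 CPM in WT, 17.3 CPM in AT1R Tg vehicle and 53.5 CPM in AT1R Tg AC1903. With age as a term in the fit, the CYP26B1 log2 difference between AC1903 and vehicle was 1.57. Leaving out single libraries it ran from 1.13 (without vehicle replicate 1) to 1.72 (without vehicle replicate 2, the library richest in proximal tubule markers). These values come from the libraries on which CYP26B1 was chosen, so they are a description, and the part of age was not tested. Macrophage and monocyte markers, summed over 10 matched of 12, were 238 and 403 CPM in WT, 221 and 284 CPM with vehicle, and 343 and 866 CPM with AC1903. All 10 had a positive log2 difference with AC1903 against vehicle (4 at an unadjusted p under 0.05, 0 called by edgeR and 2 called by DESeq2). CSF1R, the receptor that defines these cells, had 33.4 and 73.5 CPM with AC1903 against 17.3 and 25.8 with vehicle. CYP26B1 was slightly higher in AC1903 replicate 1 and the macrophage sum was highest in replicate 2, where LYZ alone had 661 CPM. Summed loop, distal tubule and collecting duct markers (9 of 10 symbols matched) had 494 and 435 CPM in WT. They had 481 and 498.5 CPM with vehicle, and 710 and 658 CPM with AC1903. Of these 9 markers, 7 had a positive and 2 a negative log2 difference with AC1903 against vehicle. At an unadjusted edgeR p under 0.05 there were 5, and edgeR and DESeq2 called 0. The part of macrophages and of these tubule and duct cells in the CYP26B1 result was not tested.

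**Figure D1:**
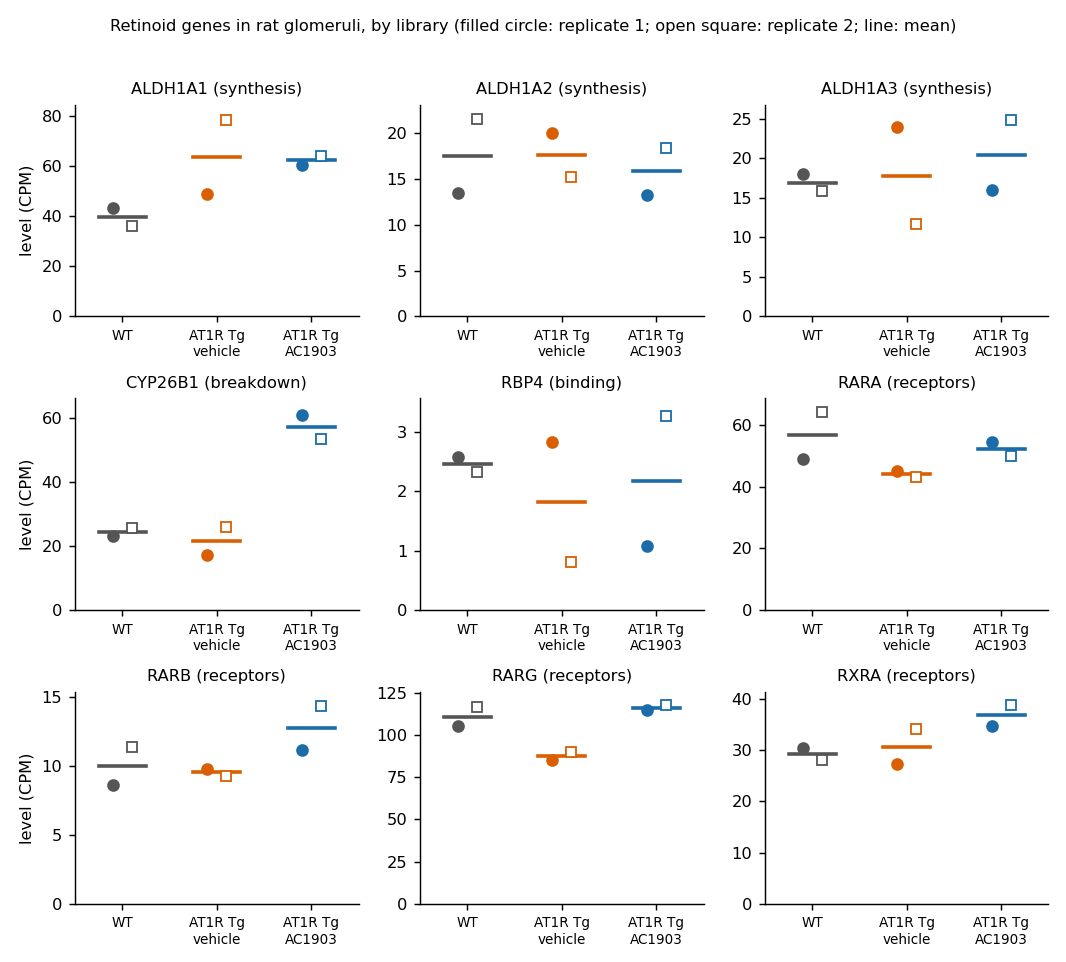
Normalised level of each of the 9 genes in each library; the vertical axis is in CPM and starts at 0, points are libraries and lines are group means. CYP26B1 with AC1903 (60.7 and 53.5 CPM) lies apart from the other 4 libraries (17.3 to 26.0 CPM), while RBP4 spreads widely within both transgenic groups.

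Among the 8 other members, none passed the edgeR test in any comparison. The test was edgeR's quasi-likelihood test with Benjamini-Hochberg adjustment over 13426 genes, and a gene was called at an adjusted p under 0.05. In AT1R Tg vehicle against WT it called 0 of the 8 members, against 0.0745% of all genes (10 genes). In AT1R Tg AC1903 against AT1R Tg vehicle it called 0 of the 8, with 0% of all genes called (0 genes), and in AT1R Tg AC1903 against WT it called 0, with 0.0372% of all genes called (5 genes). DESeq2 and limma-voom also called 0 of the 8 members in each comparison, while of all genes DESeq2 called 4.25%, 0.499% and 1.35% and limma-voom called 0.0521%, 0% and 0.0521%. At an unadjusted edgeR p under 0.05 there were 2, 1 and 1 members, against 11.9%, 8.12% and 11.1% of all genes. So few genes passed in the whole table that a lack of calls among the members does not show that their levels were alike, and the intervals below give the sizes that remain possible.

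The synthesis genes are the retinal dehydrogenases ALDH1A1, ALDH1A2 and ALDH1A3, which make retinoic acid. ALDH1A1 (ENSRNOG00000017619) had 43.5 and 36.1 CPM in WT, 48.8 and 78.6 CPM in AT1R Tg vehicle, and 60.6 and 64.3 CPM in AT1R Tg AC1903. All 4 transgenic libraries were above both WT libraries, and the 2 transgenic groups overlapped. The ALDH1A1 log2 difference of vehicle against WT was 0.68 (standard error 0.23, 95% interval 0.15 to 1.21, edgeR adjusted p = 0.268), and that of AC1903 against WT was 0.65 (95% interval 0.12 to 1.18, adjusted p = 0.398). Between AC1903 and vehicle it was −0.03 (95% interval −0.56 to 0.50, adjusted p = 0.978).

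The ALDH1A1 value of vehicle against WT turned on single libraries. Without vehicle replicate 1 it was 0.98 and passed the edgeR test (adjusted p = 0.0366), and without vehicle replicate 2 it was 0.30. It also passed when no filter on low counts was used (adjusted p = 0.0411). The order of the 6 libraries by ALDH1A1 was that of the summed proximal tubule markers, from WT replicate 2 at the bottom to vehicle replicate 2 at the top. Vehicle replicate 1 and AC1903 replicates 1 and 2 had nearly equal marker sums, at 4866, 4868 and 4939 CPM. ALDH1A1 in those libraries was 48.8, 60.6 and 64.3 CPM, so the sums hardly separate them. All 11 matched proximal tubule markers had a positive log2 difference in vehicle against WT (median 1.37; 10 at an unadjusted p under 0.05, 0 called by edgeR and 10 called by DESeq2), and 10 of 11 did in AC1903 against WT. The part of tubule RNA in the ALDH1A1 level was not tested.

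ALDH1A2 (ENSRNOG00000016042), the main retinoic acid maker of the early embryo, had 13.5 and 21.6 CPM in WT, 20.1 and 15.2 CPM in AT1R Tg vehicle, and 13.3 and 18.4 CPM in AT1R Tg AC1903. The 3 groups lay over one another, with WT holding the highest library. ALDH1A2 log2 differences were 0.01 (95% interval −0.65 to 0.67) for vehicle against WT, −0.16 (−0.83 to 0.52) for AC1903 against vehicle and −0.15 (−0.81 to 0.51) for AC1903 against WT. ALDH1A3 (ENSRNOG00000013028) had 18.0 and 15.9 CPM in WT, 23.9 and 11.6 CPM in AT1R Tg vehicle, and 16.1 and 24.9 CPM in AT1R Tg AC1903. Its vehicle libraries spanned all others but 1, and each group overlapped with the rest. ALDH1A3 log2 differences were 0.08, 0.20 and 0.27 in the same order, and for both enzymes the edgeR adjusted p lay between 0.795 and 0.993. The sign of each of these small differences changed when single libraries were left out.

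**Figure D2:**
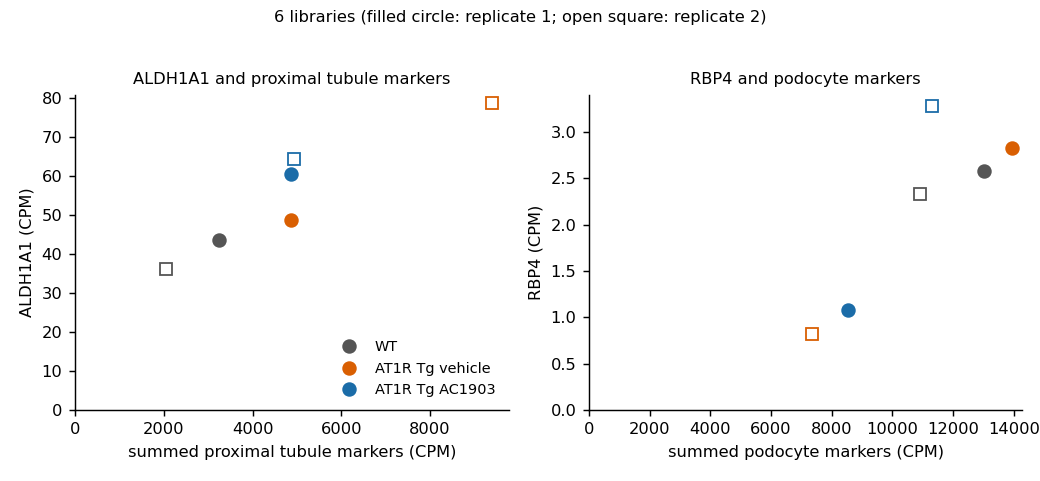
ALDH1A1 against summed proximal tubule markers (left) and RBP4 against summed podocyte markers (right), all in CPM, 1 point for each of the 6 libraries. Vehicle replicate 2 has the most ALDH1A1 (78.6 CPM) with the most tubule markers (9407 CPM), and the least RBP4 (0.814 CPM) with the fewest podocyte markers (7332 CPM).

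The binding gene RBP4 (ENSRNOG00000015518), the plasma carrier of retinol that is made chiefly in liver, had the lowest counts of the 9 genes, from 10 to 86 per library. Its level was 2.58 and 2.33 CPM in WT, 2.83 and 0.814 CPM in AT1R Tg vehicle, and 1.08 and 3.28 CPM in AT1R Tg AC1903. Each transgenic group held 1 library above WT and 1 below it. RBP4 log2 differences were −0.42 (95% interval −2.08 to 1.25, edgeR adjusted p = 0.875) for vehicle against WT and 0.25 (−1.47 to 1.96, adjusted p = 0.940) for AC1903 against vehicle. Against WT, RBP4 with AC1903 differed by −0.17 (−1.83 to 1.49, adjusted p = 0.944). RBP4 levels differed 3.48-fold between the 2 vehicle libraries and 3.03-fold between the 2 AC1903 libraries, so these intervals leave a difference of several fold in either direction possible. The 2 libraries lowest in RBP4, vehicle replicate 2 and AC1903 replicate 1, were also the lowest in summed podocyte markers, with 7332 and 8543 CPM against 10920 to 13950 CPM in the other 4 libraries. The part of podocyte RNA in RBP4 was not tested.

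The receptor genes RARA, RARB, RARG and RXRA encode the retinoic acid receptors and one of their RXR partners. All 4 had a positive log2 difference with AC1903 against vehicle, from 0.24 to 0.42, their 2 AC1903 libraries lay above both vehicle libraries, and none passed the test. Among all genes tested, 19.9% had both AC1903 libraries above both vehicle libraries and 18.4% had both below. The receptors are 4 members of 1 pathway in the same 4 libraries, so this is a count of genes and not of independent samples.

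RARG (ENSRNOG00000012499) had 105 and 117 CPM in WT, 85.6 and 89.8 CPM in AT1R Tg vehicle, and 115 and 118 CPM in AT1R Tg AC1903. Both vehicle libraries were below the other 4, and the libraries of each group lay close together. The RARG log2 difference was −0.34 for vehicle against WT (standard error 0.15, 95% interval −0.68 to −0.004, unadjusted p = 0.0481, edgeR adjusted p = 0.414) and 0.41 for AC1903 against vehicle (standard error 0.15, 95% interval 0.07 to 0.75, unadjusted p = 0.0235, adjusted p = 0.598). The 2 contrasts share the vehicle libraries, so a low vehicle mean enters both with opposite sign. Against WT, RARG with AC1903 differed by 0.07 (95% interval −0.27 to 0.40, adjusted p = 0.884). Leaving out any 1 library left the RARG difference of AC1903 against vehicle between 0.35 and 0.44. Summed endothelial markers were 8981 and 8872 CPM in WT, 6256 and 6630 CPM with vehicle, and 8942 and 6940 CPM with AC1903. All 10 of these markers had a negative log2 difference in vehicle against WT and a positive one in AC1903 against vehicle. Of them edgeR called 0 in either, and DESeq2 called 1 lower in vehicle against WT and 0 in AC1903 against vehicle. The part of endothelial RNA in the RARG values was not tested.

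RARA (ENSRNOG00000009972), the most widely expressed of the family, had 49.0 and 64.3 CPM in WT, 44.9 and 43.3 CPM in AT1R Tg vehicle, and 54.5 and 50.0 CPM in AT1R Tg AC1903. Both vehicle libraries were again the lowest of the 6, and the AC1903 libraries lay between the 2 WT libraries. RARA log2 differences were −0.36 for vehicle against WT (95% interval −0.77 to 0.04, edgeR adjusted p = 0.483) and 0.24 for AC1903 against vehicle (−0.17 to 0.65, adjusted p = 0.708). Against WT, RARA with AC1903 differed by −0.12 (−0.52 to 0.29, adjusted p = 0.829).

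RARB (ENSRNOG00000024061), itself known to be induced by retinoic acid and the member whose window held the repeat shown above, had 8.61 and 11.3 CPM in WT, 9.77 and 9.28 CPM in AT1R Tg vehicle, and 11.2 and 14.3 CPM in AT1R Tg AC1903. The vehicle libraries lay within the WT range, 1 AC1903 library was the highest of the 6, and the other was just below the upper WT library. RARB log2 differences were −0.07 for vehicle against WT (95% interval −0.66 to 0.53, edgeR adjusted p = 0.951), 0.42 for AC1903 against vehicle (−0.19 to 1.02, adjusted p = 0.671) and 0.35 for AC1903 against WT (−0.24 to 0.94, adjusted p = 0.640). RXRA (ENSRNOG00000009446), the shared partner, had 30.5 and 28.1 CPM in WT, 27.4 and 34.1 CPM in AT1R Tg vehicle, and 34.9 and 38.9 CPM in AT1R Tg AC1903. Its AC1903 libraries were the 2 highest, with the upper vehicle library close beneath. RXRA log2 differences were 0.07 for vehicle against WT (95% interval −0.34 to 0.48, edgeR adjusted p = 0.920), 0.26 for AC1903 against vehicle (−0.15 to 0.67, adjusted p = 0.688) and 0.33 for AC1903 against WT (−0.07 to 0.74, adjusted p = 0.507).

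Over the 8 members other than CYP26B1, log2 differences were positive for 4 and negative for 4 in vehicle against WT (median −0.03, as for all genes at −0.03). With AC1903 against vehicle 6 were positive and 2 negative (median 0.25, all genes −0.02), and with AC1903 against WT 5 were positive and 3 negative (median 0.17, all genes 0.00). Groups did not overlap for 3 of the 8 in vehicle against WT, where 44.0% of all genes did not overlap. ALDH1A1 was the 1 member higher there (20.6% of all genes were) and RARA and RARG were the 2 lower (23.4% of all genes). The same held for 4 of 8 in AC1903 against vehicle, all 4 higher, beside 38.3% of all genes (19.9% higher and 18.4% lower). In AC1903 against WT it held for 2 of 8, ALDH1A1 and RXRA, both higher, beside 47.7% of all genes (24.2% higher and 23.5% lower). The 4 genes in AC1903 against vehicle are the receptors. With only 8 members, counts of 3, 4 and 2 are too small to tell the members' shares from those of all genes.

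**Figure D3:**
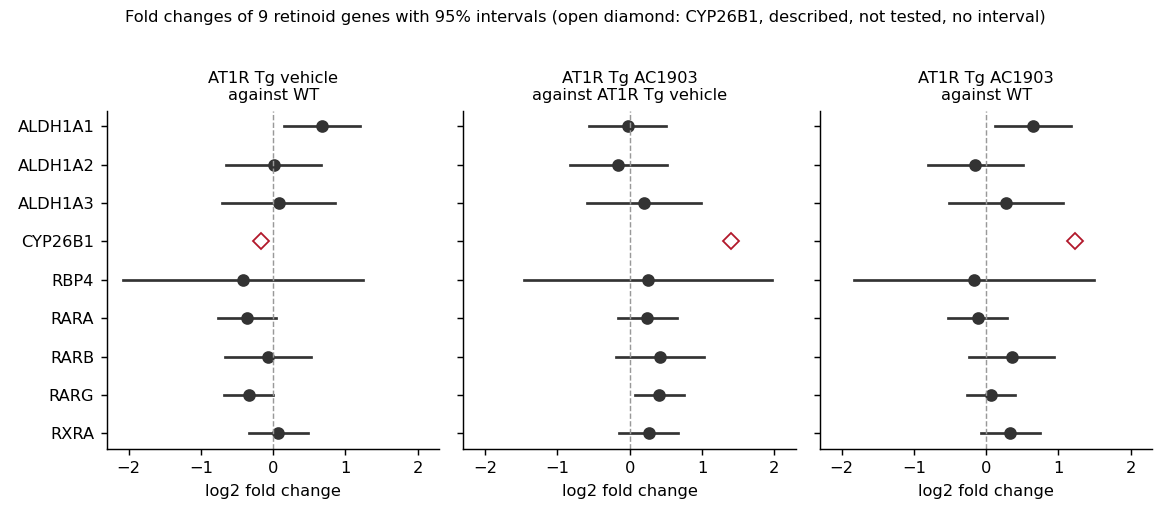
Log2 fold changes of the 9 genes in the 3 comparisons, with 95% intervals from the edgeR fit as horizontal lines and a dashed line at 0; the open diamond is CYP26B1, which was described and not tested and has no interval. CYP26B1 lies at 1.40 with AC1903 against vehicle and 1.23 against WT; the receptors lie between 0.24 and 0.42 with AC1903 against vehicle and on both sides of 0 in the other panels.

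Genes of the rest of the pathway were taken from 5 lists, and edgeR called 0 genes of any list in any comparison. The background shares are those given above for each comparison. At an unadjusted p under 0.05 the uptake and storage list had 3, 1 and 2 of its 10 tested genes in vehicle against WT, AC1903 against vehicle and AC1903 against WT. The dehydrogenases had 5, 0 and 3 of 12, the receptor partners 1, 1 and 3 of 10, and the retinoic acid-inducible genes 4, 1 and 3 of 18. DESeq2 called 3 uptake genes, 3 dehydrogenases and 3 inducible genes higher in vehicle against WT, 0 genes in AC1903 against vehicle, and 1 dehydrogenase in AC1903 against WT. Without vehicle replicate 1, edgeR called 3 uptake genes, 3 dehydrogenases and 2 inducible genes in vehicle against WT, and with no filter on low counts it called 3, 4 and 3. Under those settings edgeR called 530 and 774 genes in the whole table, against 10 before.

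Uptake, carrier and retinyl ester genes differed in both directions, with 5 positive and 5 negative log2 differences in vehicle against WT (median 0.04, all genes −0.03). With AC1903 against vehicle 6 were positive and 4 negative (median 0.02). STRA6, the membrane receptor that takes retinol from RBP4, had 8.79 and 3.66 CPM in WT, 10.1 and 33.9 CPM in AT1R Tg vehicle, and 16.3 and 13.0 CPM in AT1R Tg AC1903. Its log2 difference of vehicle against WT was 1.82 (standard error 0.57, edgeR adjusted p = 0.229), and without vehicle replicate 2 it was 0.70. CUBN, the tubule receptor cubilin, had 86.5 and 43.6 CPM in WT, 119 and 261 CPM in AT1R Tg vehicle, and 124 and 162 CPM in AT1R Tg AC1903 (log2 1.55, adjusted p = 0.191). STRA6 and CUBN were both lowest in WT replicate 2 and highest in vehicle replicate 2, as the proximal tubule markers were, CUBN is itself one of those markers, and the part of tubule RNA in these values was not tested. DESeq2 called both higher in vehicle against WT. LIPE, the hormone-sensitive lipase that can free retinol from its esters, had 55.4 and 59.5 CPM in WT, 40.5 and 46.0 CPM in AT1R Tg vehicle, and 77.4 and 57.1 CPM in AT1R Tg AC1903. Its AC1903 libraries lay above the vehicle libraries (log2 0.64, edgeR adjusted p = 0.549). CRABP2, which hands retinoic acid to its receptors, had at most 1.52 CPM in any library and 2 counts in vehicle replicate 2.

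Of 12 retinol and retinal dehydrogenases and reductases, none passed the edgeR test in any comparison. In vehicle against WT 9 of 12 had a positive log2 difference, beside 46.6% of all genes (median 0.96, all genes −0.03). In AC1903 against WT 10 of 12 did, beside 50.2% of all genes (median 0.46, all genes 0.00), and in AC1903 against vehicle 4 of 12, beside 47.9% (median −0.22, all genes −0.02). DHRS4, a short-chain reductase acting on retinal, had 39.5 and 32.2 CPM in WT, 63.4 and 78.6 CPM in AT1R Tg vehicle, and 62.1 and 56.1 CPM in AT1R Tg AC1903. All transgenic libraries were above WT, with a log2 difference of 0.99 in vehicle against WT (standard error 0.18, edgeR adjusted p = 0.155). ALDH8A1, an aldehyde dehydrogenase in this list, had 44.6 and 19.4 CPM in WT and 63.2 and 146 CPM in AT1R Tg vehicle (log2 1.71, edgeR adjusted p = 0.189). In AT1R Tg AC1903 it had 64.6 and 70.2 CPM. An alcohol dehydrogenase whose 1 ID carries the symbols ADH1B and ADH1C had log2 differences of 1.48 in vehicle against WT and 1.61 in AC1903 against WT (adjusted p = 0.205 and 0.334). DHRS4 and ALDH8A1 were also lowest in WT replicate 2 and highest in vehicle replicate 2, and the part of tubule RNA in them was not tested. DESeq2 called these 3 genes in vehicle against WT and the alcohol dehydrogenase in AC1903 against WT. DHRS3, which turns retinal back to retinol and is induced by retinoic acid, lay the other way, with 148 and 139 CPM in WT, 129 and 85.8 CPM in AT1R Tg vehicle, and 150 and 140 CPM in AT1R Tg AC1903. Its log2 difference with AC1903 against vehicle was 0.44 (adjusted p = 0.629), with both AC1903 libraries above both vehicle libraries. RDH10, the main retinol oxidiser of the embryo, had a log2 difference of −0.66 in that contrast (adjusted p = 0.659).

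Of the other retinoic acid hydroxylases only CYP2S1 was matched to a symbol, and CYP26A1 and CYP26C1 are not analysed here. CYP2S1 had 2.05 and 2.58 CPM in WT, 3.75 and 1.71 CPM in AT1R Tg vehicle, and 5.16 and 3.04 CPM in AT1R Tg AC1903. Its AC1903 libraries were above WT but overlapped with vehicle (log2 0.58 against vehicle, edgeR adjusted p = 0.768). The 95% interval of CYP2S1 for AC1903 against vehicle ran from −0.66 to 1.81, so small and large differences both remain possible for it.

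Receptor partners and cofactors had 8 of 10 positive log2 differences with AC1903 against vehicle (median 0.20, all genes −0.02) and 8 of 10 against WT (median 0.30, all genes 0.00). In vehicle against WT there were 5 of each sign (median −0.01). NCOA3, a coactivator of nuclear receptors, had 92.6 and 78.3 CPM in WT, 72.1 and 71.6 CPM in AT1R Tg vehicle, and 136 and 101 CPM in AT1R Tg AC1903. It was highest in the 2 AC1903 libraries, with a log2 difference of 0.72 against vehicle (standard error 0.19, edgeR adjusted p = 0.538). RXRG, an RXR of narrow tissue range, had 2.58 and 1.06 CPM in WT, 3.75 and 3.99 CPM in AT1R Tg vehicle, and 4.08 and 7.19 CPM in AT1R Tg AC1903 (AC1903 against WT log2 1.64, adjusted p = 0.379). RXRB, the more widespread RXR, had a log2 difference of 0.02 with AC1903 against vehicle (adjusted p = 0.981).

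Retinoic acid-inducible genes, a list of 18 tested that includes RARB and shares genes such as STRA6, CRABP2, DHRS3 and NRIP1 with the lists above, had 11 positive and 7 negative log2 differences in vehicle against WT (median 0.12) and the same numbers in AC1903 against vehicle (median 0.28). In AC1903 against WT 15 were positive and 3 negative (median 0.38, all genes 0.00). KLF15, a podocyte transcription factor induced by retinoic acid, had 20.6 and 22.3 CPM in WT, 28.9 and 19.0 CPM in AT1R Tg vehicle, and 43.4 and 31.7 CPM in AT1R Tg AC1903. Its AC1903 libraries were the 2 highest, with log2 differences of 0.65 against vehicle (edgeR adjusted p = 0.602) and 0.81 against WT (adjusted p = 0.354). TGM2, the crosslinking enzyme tissue transglutaminase, had 141 and 128 CPM in WT, 225 and 207 CPM in AT1R Tg vehicle, and 240 and 175 CPM in AT1R Tg AC1903. All 4 transgenic libraries were above WT (vehicle against WT log2 0.68, edgeR adjusted p = 0.200), and DESeq2 called it in that comparison. CD38, an ectoenzyme induced by retinoic acid in blood cells, had a log2 difference of 0.69 with AC1903 against vehicle (adjusted p = 0.631), and HOXA5, a developmental transcription factor, one of 0.60 (adjusted p = 0.664).

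**Figure D4:**
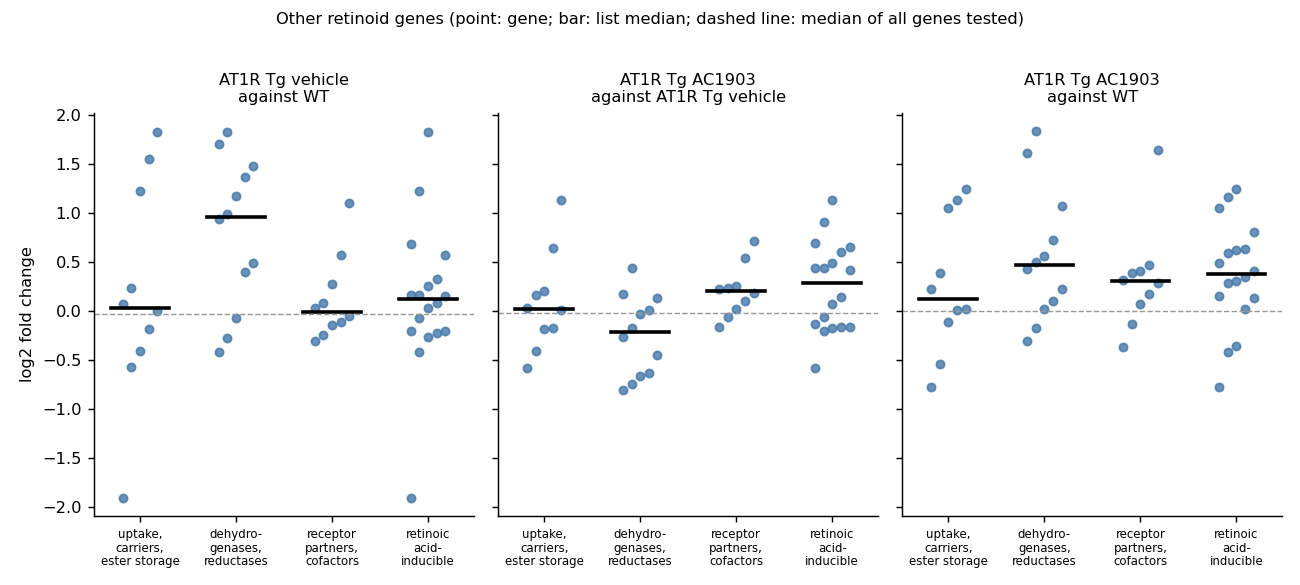
Log2 fold changes of the other retinoid genes in the 3 comparisons; each point is a gene, bars are list medians and the dashed line is the median of all genes tested. Dehydrogenases and reductases have a median of 0.96 in AT1R Tg vehicle against WT and −0.22 in AT1R Tg AC1903 against AT1R Tg vehicle.

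The genes whose profile over the 6 libraries was most like that of CYP26B1 were found among 12602 tested genes with a mean of at least 1 CPM, by the root mean square difference of log2 CPM after centring each gene on its own mean. The nearest was IRX5, a homeobox transcription factor, at 0.14, followed by CNTROB, a centriole protein, at 0.18 and RGS11, a regulator of G protein signalling, at 0.23. TLR8, a toll-like receptor of myeloid cells, and MRC1, the macrophage mannose receptor, followed at 0.24 each. IRX5 had 0.861 and 0.813 CPM in WT, 0.495 and 0.733 CPM in AT1R Tg vehicle, and 2.00 and 1.52 CPM in AT1R Tg AC1903, on 7 to 30 counts per library. MRC1 had 2.84 and 2.74 CPM in WT, 2.55 and 2.36 CPM in AT1R Tg vehicle, and 6.74 and 5.04 CPM in AT1R Tg AC1903. Like CYP26B1, all 5 were highest in the 2 AC1903 libraries. All 5 rest on far fewer counts than CYP26B1, with 7 to 49 in the vehicle libraries, and they were picked for their likeness out of many genes in 6 libraries, so no test was made.

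**Figure D5:**
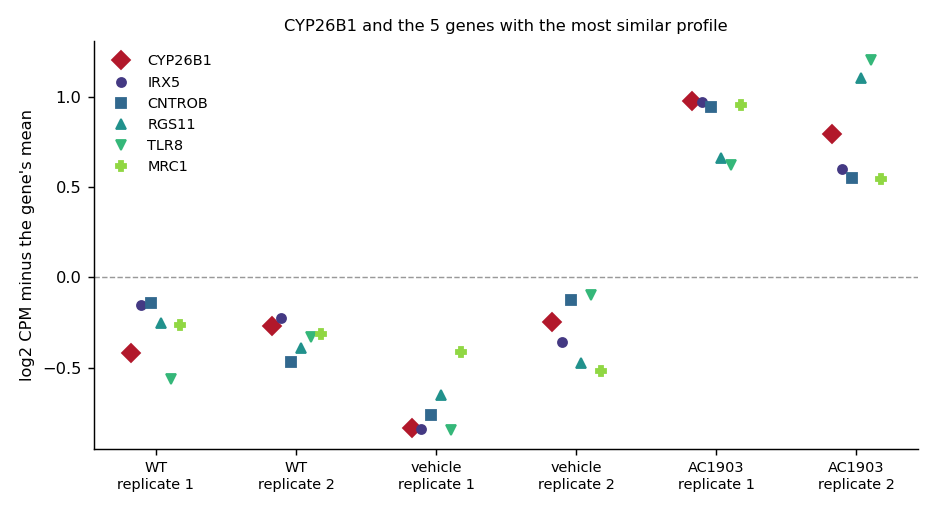
Log2 CPM of CYP26B1 and its 5 most similar genes in each library, each gene centred on its mean over the 6 libraries; the dashed line marks that mean. CYP26B1 stands at 0.98 and 0.79 above its mean in the AC1903 libraries and below it in the other 4.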

How the data were processed

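Polyadenylated RNA of isolated rat glomeruli (stranded mRNA kit, per the labels' protocols) was quantified per Ensembl gene by the authors in expected counts; STAR 2.5.2b, RSEM 1.3.0 and the build Rnor_5.0 are named per the submitters' processing notes, and no source used here gives the annotation release. Besides, 2 tables of log2 fold changes with adjusted p-values were deposited by the authors and used here for symbols and where named. The counts were rounded to integers before fitting. Low genes were removed by edgeR's filterByExpr by group (13426 of 26319 were kept; 8955 had no counts), and the rest were scaled by TMM and fitted over all 6 libraries with edgeR 4.0.16 (R 4.3.3; quasi-likelihood, two-sided; 3 residual degrees of freedom; common biological coefficient of variation 23.0%). P-values were adjusted by Benjamini-Hochberg over all genes tested, and standard errors and 95% intervals come from that fit. Log2 CPM used a prior count of 2. DESeq2 1.42.0, limma-voom (limma 3.58.1), other scalings and filters, age as a covariate, the replicate number as a block and leaving out each library were alternatives. Replicates differed by more than counting noise in each group (chi-square per degree of freedom 53.4, 92.8 and 19.0). Named genes were all members, up to 4 tested genes per pathway list and comparison by smallest p, the 5 genes most like CYP26B1, and defining markers; the values of 1 such list gene are not reported here. The members and lists were chosen with earlier results of these data known.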

Additional observations from a re-analysis of the deposited data

How the results depend on the processing

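Of 402 values of the 9 genes under 15 alternatives, 374 counted as the same and 24 reversed. Another 2 passed the threshold newly (ALDH1A1, vehicle against WT) and 2 moved beyond the replicate spread (CYP26B1). For the other members, the same meant an unchanged direction and side of the threshold. For CYP26B1, which had no threshold, it meant a shift smaller than the replicate spread. A small CYP26B1 value could thus change sign, as in vehicle against WT without vehicle replicate 1 (0.09). The number of members called in vehicle against WT was 1 with no filter on low counts and 0 to 1 when single libraries were left out; the cause was not tested. In the other comparisons it was 0 under every alternative run. CYP26B1 with AC1903 against vehicle ran from 1.13 to 1.72 on the log2 scale, and against WT from 1.13 to 1.31; vehicle against WT ran from −0.49 to 0.09. The causes of the reversals were not tested. Upper-quartile scaling gave −0.008 for ALDH1A2 in vehicle against WT, and limma-voom 0.020 for ALDH1A1 in AC1903 against vehicle. Age as a covariate gave −0.128 for RXRA in vehicle against WT and, in AC1903 against vehicle, 0.431 for ALDH1A1, 0.039 for RDH16 (−0.80 without it) and −0.272 for CYP2S1 (0.58 without it). Leaving out single libraries gave ranges, in vehicle against WT, of −0.295 to 0.390 for ALDH1A2, −0.542 to 0.501 for ALDH1A3, −1.588 to 0.206 for RBP4, −0.255 to 0.143 for RARB, −0.094 to 0.219 for RXRA and −0.438 to 0.697 for CYP2S1. In AC1903 against vehicle they were −0.334 to 0.347 for ALDH1A1, −0.441 to 0.056 for ALDH1A2, −0.234 to 0.811 for ALDH1A3 and −0.784 to 1.414 for RBP4. In AC1903 against WT they were −0.453 to 0.233 for ALDH1A2, −0.084 to 0.543 for ALDH1A3, −1.186 to 0.404 for RBP4, −0.306 to 0.088 for RARA and −0.009 to 0.142 for RARG. Where this left a group with 1 library, that library was assumed to vary like the others. RBP4 was not tested with a filter of 5 CPM in 2 libraries. Whole-table calls ran from 1 to 774 in vehicle against WT, 0 to 114 in AC1903 against vehicle and 1 to 464 in AC1903 against WT, the highest each with no filter on low counts; without vehicle replicate 1 the first was 530. Same-numbered replicates did not deviate together (correlations −0.02, −0.04 and 0.01), so the numbers do not pair libraries; with the replicate block, CYP26B1 with AC1903 against vehicle was 1.42, 0 members were called, and whole-table calls were 4, 2 and 7 against 10, 0 and 5. Depth limits RBP4, CRABP2, IRX5, CNTROB, RGS11 and MRC1, with 40 counts or fewer in each vehicle library.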
